A study of Homo sapiens with 9 samples.

Results

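The genes described here encode the proteins of the cytosolic ribosome. They were taken by symbol from the protein-coding rows of the count table, as genes named RPL or RPS with a number and any paralogue letter, the stalk genes RPLP0 to RPLP2, and RPSA, leaving out 2 genes of the Y chromosome. This gave 84 genes of the 46427 in the table: 46 large subunit genes, 31 small subunit genes, and 7 paralogues (RPL3L, RPL7L1, RPL10L, RPL22L1, RPL26L1, RPL39L and RPS27L), which are copies with a restricted or less known use. Of the 84 genes, 83 passed the filter on low counts. RPL10L, a testis gene, had 0 counts in all 9 libraries and was not tested. RPL3L passed the filter through the hESC libraries alone.

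RNA sequencing covered 3 groups of 3 libraries, all from H9, an established line of human embryonic stem cells (hESC). BafA1 NPC were neural progenitor cells at day 11 of a midbrain dopaminergic differentiation that had received bafilomycin A1 (BafA1) at 10 nM in exposures of 6 h. BafA1 blocks the vacuolar proton pump, and with it lysosomal acidification and the clearance of autophagosomes. The protocol names several day windows for this, without saying which one applied to the sequenced cells. Control NPC were day 11 cells of the same differentiation without BafA1. Both NPC groups were differentiated with 200 nM LDN193189 and 10 µM SB431542, inhibitors of the receptors for BMP and TGF-beta, 2 µM purmorphamine, a Hedgehog agonist, and 3 µM CHIR99021, a GSK3 inhibitor. The hESC were undifferentiated H9 cells with no treatment. The libraries of a group are called biological replicates, but whether they came from separate cultures is not stated, so p-values measure the spread between these libraries, which may be technical. In bulk RNA, fewer cells of a type and less RNA per cell cannot be told apart.

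A ribosome is built from a small subunit, which reads the mRNA, and a large subunit, which joins amino acids, and each holds ribosomal RNA and 1 copy of most of its proteins. Ribosomal protein mRNAs are among the most abundant of growing cells. Most begin with a C followed by a run of pyrimidines, the terminal oligopyrimidine (TOP) motif. Through this motif the kinase complex mTORC1, which sits on lysosomes when amino acids are present, controls how well the mRNAs are translated and, with the TOP-binding protein LARP1, how stable they are. Stem cells are known for high ribosome production, and RPL5 and RPL11 link ribosome assembly to p53 by binding MDM2.

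The lines below show which of the genes printed have the motif at an annotated start and which do not. A motif at a start that is not annotated would be missed. Where a gene has several annotated starts, the one with the longest run is printed. RPL13 has the motif at 1 of 3 starts and RPS19 at 1 of 2. Each line runs from 10 bases before the start through the first 20 bases of the transcript, 5′ to 3′ on the strand of the gene, from RefSeq on GRCh38.p14, and capitals mark the C at the start and the pyrimidines that follow it without a break. RPL36, RPL13 and RPS19 are among the genes whose counts differed most between groups, RPLP0 and RPL13A are among the most abundant, RPS6 and RPS26 stand apart from the others in the results, and the paralogues RPL22L1, RPS27L, RPL26L1 and RPL7L1 are set beside the starts of RPL22, RPS27 and RPL26.
RPL36, chr19:5690285-5690314, plus strand: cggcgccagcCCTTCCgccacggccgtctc
RPL13, chr16:89560672-89560701, plus strand: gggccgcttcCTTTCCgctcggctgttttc
RPS19, chr19:41860245-41860274, plus strand: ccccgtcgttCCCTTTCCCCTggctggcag
RPLP0, chr12:120201092-120201121, minus strand: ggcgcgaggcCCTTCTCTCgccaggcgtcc
RPL13A, chr19:49487598-49487627, plus strand: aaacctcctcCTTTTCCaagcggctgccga
RPS6, chr9:19380217-19380246, minus strand: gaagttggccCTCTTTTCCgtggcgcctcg
RPL41, chr12:56116623-56116652, plus strand: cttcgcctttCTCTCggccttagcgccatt
RPS26, chr12:56041908-56041937, plus strand: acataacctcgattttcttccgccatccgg
RPL22, chr1:6199576-6199605, minus strand: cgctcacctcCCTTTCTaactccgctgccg
RPL22L1, chr3:170870176-170870205, minus strand: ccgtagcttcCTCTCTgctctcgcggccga
RPS27, chr1:153990752-153990781, plus strand: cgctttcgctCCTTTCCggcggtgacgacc
RPS27L, chr15:63157458-63157487, minus strand: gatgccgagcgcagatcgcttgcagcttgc
RPL26, chr17:8383174-8383203, minus strand: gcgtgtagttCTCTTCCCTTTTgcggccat
RPL26L1, chr5:172958719-172958748, plus strand: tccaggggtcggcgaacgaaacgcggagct
RPL7L1, chr6:42879606-42879635, plus strand: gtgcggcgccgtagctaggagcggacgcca
The run spans 5 bases in RPL41 and 12 in RPL26. RPS26, RPS27L, RPL26L1 and RPL7L1 have none at the annotated start, while RPL22L1 keeps a run of 6 bases beside the 7 of RPL22.

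Total counts were 43124679 to 69703791 per library. Pluripotency genes (8) summed to 811 to 888 CPM in BafA1 NPC and 580 to 639 CPM in control NPC, against 5710 to 6047 CPM in hESC. TDGF1 was at 0 counts in both NPC groups, and POU5F1 and PRDM14 were at 0 in control NPC. Between BafA1 NPC and control NPC edgeR called 2 of the 8 higher and 1 lower (20.8 and 20.7% of all genes). Markers of the floor plate and neural progenitors (9 genes) summed to 816 to 994 CPM in BafA1 NPC and 792 to 1042 CPM in control NPC, against 122 to 142 CPM in hESC. Of these, 2 were higher and 2 lower in BafA1 NPC than in control NPC by edgeR. Mesenchyme genes (6) summed to 3037 to 3400 CPM in BafA1 NPC and 1592 to 2675 CPM in control NPC, against 164 to 178 CPM in hESC. In both NPC groups these sums were above those of the floor plate and neural progenitor markers. Between the NPC groups 2 mesenchyme genes were higher and 2 lower by edgeR, and no defining gene of the list was at 0 in either. Neuronal genes (6) summed to 350 to 406 CPM in BafA1 NPC and 349 to 386 CPM in control NPC. The part of these cell types in the ribosomal protein results was not tested.

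The 84 genes took 8.61, 11.8 and 10.5% of all counts in BafA1 NPC replicates 1, 2 and 3, 6.99, 7.84 and 8.79% in control NPC, and 7.93, 7.24 and 8.12% in hESC. The means were 10.3 ± 1.62% in BafA1 NPC, 7.87 ± 0.898% in control NPC and 7.77 ± 0.465% in hESC (SD, n = 3 each). Replicates 2 and 3 of BafA1 NPC lay above every other library, whereas replicate 1 lay below replicate 3 of control NPC, so the groups overlapped. Large and small subunit genes showed the same picture: large subunit genes took 6.28 ± 0.978% of counts in BafA1 NPC and 4.77 ± 0.547% in control NPC, and small subunit genes took 4.01 ± 0.640% and 3.06 ± 0.352% in the same groups. Counts from the mitochondrial genome were lower in BafA1 NPC, with 2.42 to 2.68% in BafA1 NPC, 3.31 to 3.44% in control NPC and 4.61 to 5.33% in hESC, and their part in the result was not tested. Outside the mitochondrial genome the share of the ribosomal protein genes was 10.6 ± 1.67% in BafA1 NPC, 8.15 ± 0.926% in control NPC and 8.17 ± 0.458% in hESC.

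**Figure D1:**
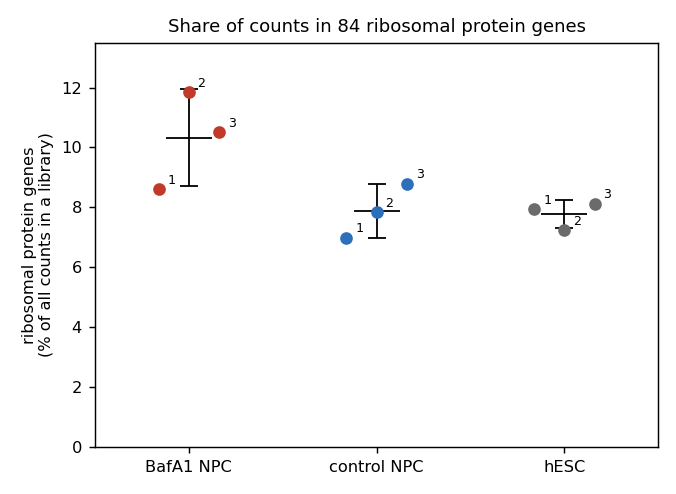
Share of all counts (y axis, %) taken by the 84 ribosomal protein genes in each library, with points labelled by replicate number and bars for the mean and SD of 3 libraries. BafA1 NPC replicates 2 and 3, at 11.8 and 10.5%, lie above all others, and BafA1 NPC replicate 1, at 8.61%, lies below control NPC replicate 3, at 8.79%.

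Within a library, the 77 genes without the paralogues moved together. In BafA1 NPC replicates 1, 2 and 3, 30, 76 and 76 of the 77 lay above their own mean over the 9 libraries, with median deviations of -0.02, 0.56 and 0.42 on the log2 CPM scale. In control NPC replicates 1, 2 and 3, 0, 0 and 34 genes lay above their mean, and the medians were -0.37, -0.20 and -0.01. In hESC the numbers were 16, 1 and 17 genes, with medians of -0.08, -0.21 and -0.07. The replicates of each NPC group were therefore spread along the same direction that separated the groups, and the results below are also given without single libraries where these change them.

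**Figure D2:**
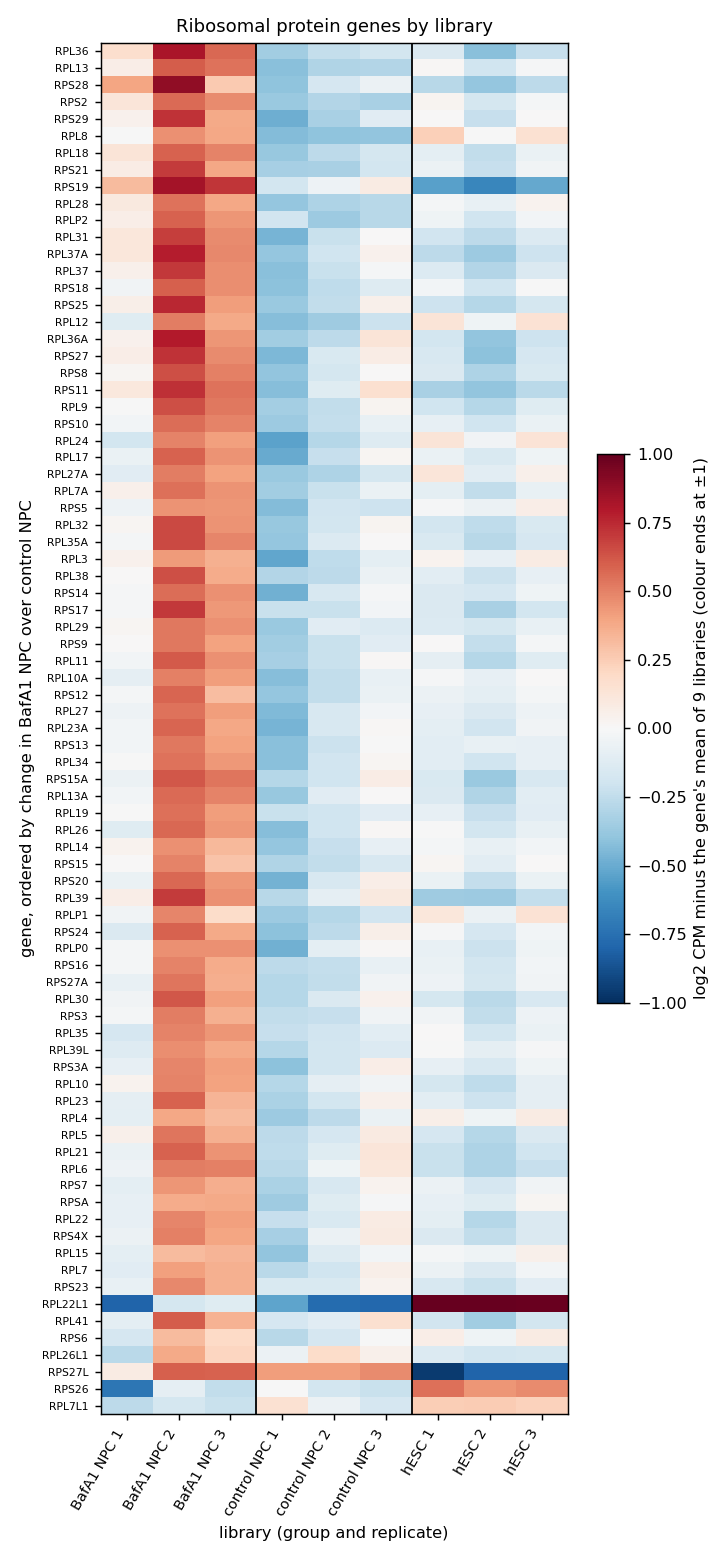
Deviation of the tested genes plotted, RPL3L left out (rows, ordered by the change between BafA1 NPC and control NPC) from its own mean over 9 libraries (columns), in log2 CPM, red above and blue below the mean. Nearly whole columns share a colour: red in BafA1 NPC replicates 2 and 3 (medians 0.56 and 0.42), blue in control NPC replicate 1 (median -0.37).

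Per length of transcript, RPS2 had the highest FPKM of the 84 genes in BafA1 NPC and hESC, and RPL41 in control NPC. RPS2, a small subunit protein near the channel where mRNA enters, reached 3001 ± 380 FPKM in BafA1 NPC, 2013 ± 68 FPKM in control NPC and 2336 ± 183 FPKM in hESC. RPL41, the shortest ribosomal protein, reached 2340 ± 455, 2045 ± 237 and 1709 ± 125 FPKM in BafA1 NPC, control NPC and hESC. RPL41 ranked only sixth in BafA1 NPC and eighth in hESC, and its difference from RPS2 in control NPC was smaller than the SD of RPL41. Of the 10 most abundant genes of each group, 6 were shared by all 3: RPL13A, RPL41, RPL7A, RPLP0, RPS18 and RPS2. The median FPKM of the 77 genes was 1299 in BafA1 NPC, 972 in control NPC and 992 in hESC. At the low end RPS26, a small subunit protein at the site where mRNA leaves, had 104 ± 18.9 FPKM in BafA1 NPC, 132 ± 11.5 FPKM in control NPC and 196 ± 8.31 FPKM in hESC. RPL14, named like RPL7A and RPS18 for its rank, was the lowest of the 77, at 99.3, 77.5 and 84.8 FPKM in BafA1 NPC, control NPC and hESC. FPKM depends on the transcript length assumed for each gene, so these ranks hold for the deposited values alone.

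The comparison of BafA1 NPC with control NPC describes how these mRNAs differed between day 11 cells with and without BafA1. RNA counts do not measure lysosomal acidification. By edgeR's quasi-likelihood test with Benjamini-Hochberg adjustment over all 20685 genes, 73 of the 83 tested ribosomal protein genes were higher in BafA1 NPC, against 20.8% of all genes. None was lower (0 by edgeR, against 20.7% of all genes). At an unadjusted p under 0.05 edgeR gave 77 higher and 1 lower, DESeq2 called 77 higher and 0 lower, and limma on log2(FPKM + 1) called 22 higher and 2 lower. Of all 20685 genes DESeq2 called 4655 higher (22.5%) and 4365 lower, and limma 2941 higher (14.2%) and 5729 lower. The median change was 0.53 on the log2 scale (1.44-fold), against 0 over all genes, with quartiles of 0.46 and 0.59. Of the 46 large subunit genes 44 rose, with a median of 0.54, and of the 31 small subunit genes 28 rose, also with a median of 0.54. In 37 of the 83 genes all 3 BafA1 NPC libraries lay above all 3 control NPC libraries, against 24.1% of all genes. RPL7L1 alone had all BafA1 NPC libraries below all control NPC libraries, against 25.1% of all genes. The number of genes called higher depended on single libraries: it was 78 without BafA1 NPC replicate 1, but 40 without BafA1 NPC replicate 2, 47 without BafA1 NPC replicate 3, 40 without control NPC replicate 1 and 49 without control NPC replicate 2. The median change was 0.41 to 0.69 over the fits that each left out 1 of the 9 libraries. It was 0.33, with 61 genes higher and 1 lower, once the trend of the changes with transcript length over all genes was removed.

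Genes with the largest rise and no overlap between groups included RPL36, RPL13, RPS28, RPS2 and RPS29. RPL36, a large subunit protein whose start is printed above, had 567, 888 and 749 CPM in BafA1 NPC, against 397, 426 and 443 CPM in control NPC. Every BafA1 NPC library was above every control NPC library, and the change was 0.80 ± 0.14 (log2, SE; edgeR adjusted p = 0.00111). RPL13, whose inherited variants impair skeletal growth, had 1425, 2070 and 1988 CPM in BafA1 NPC, against 1021, 1104 and 1110 CPM in control NPC. The control NPC libraries lay close together and below the lowest BafA1 NPC library, with a change of 0.76 ± 0.13 (edgeR adjusted p = 0.000972).

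Among small subunit genes, RPS28 (chr19:8321496-8323340) had 351.5, 494 and 321.5 CPM in BafA1 NPC, against 203, 239 and 257 CPM in control NPC. Its change was 0.74 ± 0.15 (edgeR adjusted p = 0.00212), and BafA1 NPC replicate 3 was the nearest to the control range. RPS28 is the gene least well separated from its copies: counts assigned to its pseudogenes amounted to 50.8% of the gene's own counts in BafA1 NPC, 55.4% in control NPC and 61.7% in hESC. RPS2 (chr16:1962058-1964826) had 2892, 3944 and 3697 CPM in BafA1 NPC, against 2056, 2164 and 2123 CPM in control NPC. The 3 control NPC libraries were close to each other and all lower, and the change was 0.73 ± 0.12 (edgeR adjusted p = 0.000626). RPS29, a zinc-binding small subunit protein (chr14:49570988-49598710), had 374, 600.5 and 473 CPM in BafA1 NPC, against 259, 291 and 336.5 CPM in control NPC. The gap between the groups was narrow beside the spread within BafA1 NPC, with a change of 0.71 ± 0.16 (edgeR adjusted p = 0.00408). RPS19, the gene most often mutated in Diamond-Blackfan anaemia, had 1657, 2372 and 2189 CPM in BafA1 NPC, against 1174, 1288 and 1410 CPM in control NPC. It rose by 0.68 ± 0.13 (edgeR adjusted p = 0.00167), with no overlap. RPL8, a protein next to the catalytic centre of the large subunit, had 1490, 2047 and 1957 CPM in BafA1 NPC, against 1106, 1133 and 1138 CPM in control NPC. The groups were apart, and it rose by 0.70 ± 0.12 (edgeR adjusted p = 0.000931).

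The stalk of the large subunit, which recruits elongation factors, is made of RPLP0 with RPLP1 and RPLP2 and stands on RPL12. RPLP2 had 597, 859 and 775 CPM in BafA1 NPC, against 499, 442 and 471 CPM in control NPC, and rose by 0.66 ± 0.13 (edgeR adjusted p = 0.0016). RPL12 (chr9:127447674-127451406) had 1040, 1612 and 1472 CPM in BafA1 NPC, against 841, 885 and 974 CPM in control NPC, and rose by 0.61 ± 0.15 (edgeR adjusted p = 0.00579). Neither gene overlapped between the groups. RPLP1 had 1158, 1663 and 1345 CPM in BafA1 NPC, against 921, 970 and 1037 CPM in control NPC, and rose by 0.51 ± 0.13 (edgeR adjusted p = 0.00803). RPLP0, often used as a reference gene in quantitative PCR, had 2613, 3637 and 3629 CPM in BafA1 NPC, against 1901, 2470 and 2666 CPM in control NPC. Here BafA1 NPC replicate 1 lay below control NPC replicate 3, and the rise of 0.49 ± 0.15 (edgeR adjusted p = 0.0232) was no longer called without BafA1 NPC replicate 2 or 3 or control NPC replicate 1 (adjusted p = 0.0778, 0.0841 and 0.0879).

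RPL5 and RPL11, which hold MDM2 when ribosome assembly is disturbed, were both higher. RPL5 had 1482, 2073 and 1829 CPM in BafA1 NPC, against 1192, 1275 and 1519 CPM in control NPC, a change of 0.43 ± 0.13 (edgeR adjusted p = 0.0212). RPL11 had 1146, 1791 and 1604 CPM in BafA1 NPC, against 932, 1002 and 1180 CPM in control NPC, a change of 0.54 ± 0.15 (edgeR adjusted p = 0.0141). In both genes BafA1 NPC replicate 1 fell within the control range. RPL13A, known for a second role in silencing inflammatory mRNAs, rose by 0.52 ± 0.15 (edgeR adjusted p = 0.0181), and RPL10A, part of the mobile stalk at the exit site of tRNA, by 0.54 ± 0.15 (edgeR adjusted p = 0.0113). RPSA, a small subunit protein also described as a laminin receptor, rose by 0.39 ± 0.13 (edgeR adjusted p = 0.0344). Among these, leaving out 1 library ended the calls of RPL5 (adjusted p up to 0.083, without BafA1 NPC replicate 2 or 3 or control NPC replicate 1 or 2), RPL11 (up to 0.0588, without BafA1 NPC replicate 2 or control NPC replicate 1 or 2), RPL13A (up to 0.072, without BafA1 NPC replicate 2 or 3 or control NPC replicate 1) and RPSA (up to 0.124, in 6 of the 9 fits). RPL10A kept its call in all 9 fits.

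**Figure D3:**
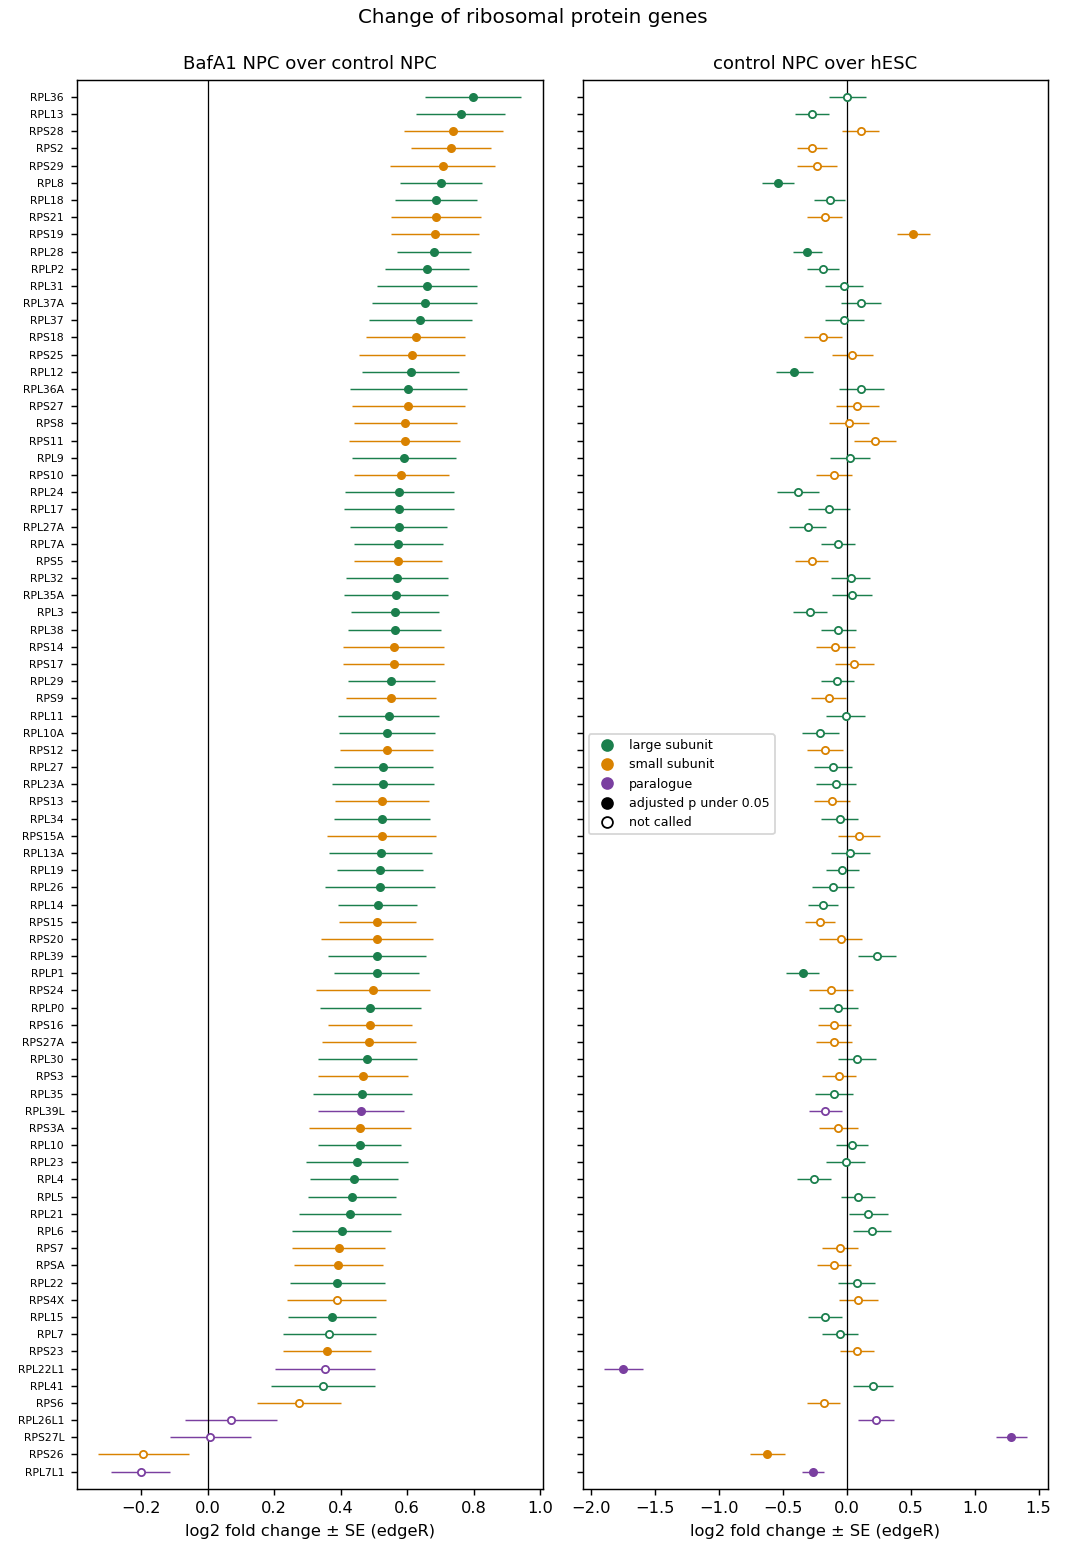
Change of the tested genes plotted, RPL3L left out (rows), as edgeR log2 fold change with SE, BafA1 NPC over control NPC on the left and control NPC over hESC on the right, in the same gene order, filled where the adjusted p was under 0.05. On the left nearly all genes lie between 0.3 and 0.80 and are filled, and on the right most scatter around 0 and are open.

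The 10 tested genes that were not called were 5 of the 6 tested paralogues, RPS26, RPS6, RPL41, RPL7 and RPS4X, the X-linked copy of a small subunit gene, which is named after its value was seen (0.39, edgeR adjusted p = 0.0546). One of the 5 paralogues, RPL3L, had 0 counts in both groups and could not be called. Without it 73 of 82 genes were higher. RPS26 had 112, 173 and 155 CPM in BafA1 NPC, against 184, 162 and 158 CPM in control NPC, a change of -0.19 ± 0.14 that did not pass (edgeR adjusted p = 0.276). It was called lower with libraries scaled by size (-0.33, edgeR adjusted p = 0.0442) and by limma on log2(FPKM + 1) (-0.36, adjusted p = 0.0444), as was RPL7L1 (-0.33, edgeR adjusted p = 0.00953, and -0.32, limma adjusted p = 0.00879). RPS26 was also called lower with the length trend removed (-0.40, edgeR adjusted p = 0.0074) or GC and length trends removed (-0.325, edgeR adjusted p = 0.0197), but not by DESeq2. RPS6, the substrate of the S6 kinases downstream of mTORC1, had 1574, 2199 and 2035 CPM in BafA1 NPC, against 1463, 1577 and 1763 CPM in control NPC. The groups overlapped through BafA1 NPC replicate 1, and the change of 0.27 ± 0.13 did not pass (edgeR adjusted p = 0.105), although it did without that library (0.41, adjusted p = 0.00473). RPL41 had 1244, 2020 and 1694 CPM in BafA1 NPC, against 1186, 1228 and 1486 CPM in control NPC, a change of 0.35 ± 0.16 (edgeR adjusted p = 0.0982, and 0.0042 without BafA1 NPC replicate 1). RPL7 changed by 0.37 ± 0.14 (edgeR adjusted p = 0.0539), and passed without BafA1 NPC replicate 1 (adjusted p = 0.00213) or control NPC replicate 3 (adjusted p = 0.0288).

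Scaling each library to the summed counts of the 84 genes, a choice made after the data had been seen, asks how the genes changed relative to each other. By construction it centres them near 0. On this scale 72 of the 83 genes changed by less than 0.2 (log2) between BafA1 NPC and control NPC. The 72 include RPL3L, which had 0 counts in both groups. With edgeR 0 were higher, against 4.34% of all genes, and 3 were at an unadjusted p under 0.05. Relative to the others, 5 genes were lower, against 39.3% of all genes: RPS26, RPS6 and the paralogues RPL7L1, RPS27L and RPL26L1. RPS26 took 0.133, 0.139 and 0.136% of all ribosomal protein counts in BafA1 NPC, against 0.276, 0.218 and 0.190% in control NPC and 0.333, 0.336 and 0.3115% in hESC. All 3 groups were apart from each other, and the BafA1 NPC libraries, which differed widely in their total share, were alike in this one. The relative change was -0.75 ± 0.15 (edgeR adjusted p = 0.00241). RPS6 took 1.87, 1.77 and 1.79% in BafA1 NPC, against 2.20, 2.13 and 2.13% in control NPC and 2.28, 2.32 and 2.29% in hESC. This was a smaller shift, of -0.25 ± 0.09 (edgeR adjusted p = 0.0388), but the groups did not overlap.

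Between control NPC and hESC, which differ by 11 days of differentiation, most of these genes did not pass the test. edgeR called 2 of the 83 higher in control NPC, against 33% of all genes, and 9 lower, against 31.6% of all genes. One of the 9, RPL3L, passed the filter through hESC alone and so had to be called, which leaves 8 lower. The median change was -0.07, with quartiles of -0.19 and 0.04, against 0.03 over all genes, and it was 0.03 with the length trend removed or with libraries scaled by size. The libraries did not overlap in 4 genes that were higher, against 37% of all genes, and 19 that were lower, against 35.8% of all genes. RPL3L is among the 19, which the filter likewise fixed. Leaving out 1 library at a time gave 2 to 3 genes higher and 5 to 20 lower. The lower count was 20 without BafA1 NPC replicate 1, which enters through the shared spread, 6 without control NPC replicate 1 or hESC replicate 3, and 5 without control NPC replicate 2 or hESC replicate 1.

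The 2 genes that rose were RPS19 and the paralogue RPS27L. RPS19 had 1174, 1288 and 1410 CPM in control NPC, against 913, 849 and 937 CPM in hESC. The control NPC libraries were all higher, a change of 0.52 ± 0.13 (edgeR adjusted p = 0.00417). As BafA1 NPC were higher still, the change between BafA1 NPC and hESC was 1.20 ± 0.13 (edgeR adjusted p = 5.96e-06). Relative to all ribosomal protein counts it was also ordered by group without overlap, at 1.97, 1.91 and 1.92% in BafA1 NPC, 1.76, 1.74 and 1.70% in control NPC and 1.13, 1.14 and 1.14% in hESC.

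Of the genes that were lower in control NPC, RPL8 (chr8:144789769-144792390) had 1106, 1133 and 1138 CPM, against 1758, 1486 and 1664 CPM in hESC. The groups were well apart, with a change of -0.54 ± 0.12 (edgeR adjusted p = 0.00213). RPS26 had 184, 162 and 158 CPM in control NPC, against 270.2, 249 and 255 CPM in hESC, a change of -0.62 ± 0.14 (edgeR adjusted p = 0.00168). Between BafA1 NPC and hESC it changed by -0.82 ± 0.14 (edgeR adjusted p = 0.0002), the only gene of the 77 that edgeR called lower there. RPL12 and RPLP1 of the stalk changed by -0.41 ± 0.15 (edgeR adjusted p = 0.0254) and -0.35 ± 0.13 (edgeR adjusted p = 0.0322). Both of these calls were lost when control NPC replicate 1 or 2 or hESC replicate 1 or 3 was left out, with adjusted p up to 0.078 for RPL12 and 0.102 for RPLP1. RPL28, a large subunit protein that was also lower, changed by -0.31 (edgeR adjusted p = 0.0282), and is named here after its value was seen. Relative to the summed ribosomal protein counts 64 of 83 genes changed by less than 0.2, with 6 higher, against 29.2% of all genes, and 7 lower, against 22.2% of all genes. RPL3L is among the 7, a call fixed by its passing the filter through hESC alone.

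Set against hESC, BafA1 NPC had 63 of the 83 genes higher, against 35.5% of all genes, and 4 lower, against 34.8% of all genes. The 4 lower genes were RPS26 and the paralogues RPL3L, RPL22L1 and RPL7L1, and the filter alone fixed the call of RPL3L, which leaves 3. The median change was 0.46, against 0.02 over all genes, and ranged between 0.33 and 0.60 in fits that left out 1 library. The count of higher genes was 78 without BafA1 NPC replicate 1, 38 without BafA1 NPC replicate 2 and 40 without hESC replicate 2. In 53 genes the BafA1 NPC libraries all lay above the hESC libraries, against 37.2% of all genes. RPL36 rose by 0.80 ± 0.14 over hESC (edgeR adjusted p = 0.00034) and RPS28 by 0.85 ± 0.15 (edgeR adjusted p = 0.00028). RPL8 and RPL12, which were lower in control NPC, were not called between BafA1 NPC and hESC (0.16, edgeR adjusted p = 0.253, and 0.20, adjusted p = 0.239), but both were called higher without BafA1 NPC replicate 1 (0.28, adjusted p = 0.0106, and 0.36, adjusted p = 0.00527). Relative to the summed ribosomal protein counts 7 genes were higher, against 20.2% of all genes, and 9 lower, against 42.6% of all genes. RPL3L is again among the 9 by its filter alone. The contrasts with hESC and with control NPC share libraries, so their values are not independent of each other.

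The paralogues had patterns of their own. RPL22L1, a copy of the RNA-binding large subunit protein RPL22, had 32.6, 50.1 and 52.1 CPM in BafA1 NPC, 39.3, 33.3 and 33.0 CPM in control NPC, and 123, 119.9 and 112.4 CPM in hESC. All NPC libraries were far below hESC, with a change of -1.75 ± 0.15 between control NPC and hESC (edgeR adjusted p = 9.28e-07). Per length, RPL22L1 reached 5.22 ± 0.332% of the FPKM of RPL22 in BafA1 NPC and 5.51 ± 1.11% in control NPC, against 19.5 ± 1.67% in hESC. RPL22 itself changed by 0.08 ± 0.14 between control NPC and hESC (edgeR adjusted p = 0.656). Between BafA1 NPC and control NPC, RPL22L1 changed by 0.35 ± 0.15 (edgeR adjusted p = 0.0788), and passed without BafA1 NPC replicate 1 (0.55, adjusted p = 0.00115).

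RPS27L, a copy of RPS27 that p53 activates, moved the opposite way. It had 86.2, 123 and 122 CPM in BafA1 NPC, 108, 108 and 112.5 CPM in control NPC, and 41.8, 46.5 and 46.5 CPM in hESC. Every NPC library was above every hESC library, and the change between control NPC and hESC was 1.29 ± 0.12 (edgeR adjusted p = 2.07e-06). BafA1 NPC and control NPC overlapped and differed by 0.01 ± 0.12 (edgeR adjusted p = 0.976). RPS27 rose in BafA1 NPC over control NPC by 0.60 ± 0.17 (edgeR adjusted p = 0.0138), a call lost without BafA1 NPC replicate 2 (adjusted p = 0.0597) or control NPC replicate 1 (adjusted p = 0.0571). RPS27L thus stood at 0.628 ± 0.0573% of the FPKM of RPS27 in BafA1 NPC, 0.937 ± 0.154% in control NPC and 0.400 ± 0.0575% in hESC. The level of these percentages rests on the lengths behind the deposited FPKM, 7075 bases for RPS27L and 414 for RPS27. In CPM, which is not scaled for length, RPS27 averaged 1059, 697 and 659 in BafA1 NPC, control NPC and hESC. RPS27L averaged 110, 110 and 45.0 CPM in the same groups.

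RPL7L1, a nucleolar protein of large subunit assembly, had 94.5, 100.2 and 97.1 CPM in BafA1 NPC, 126, 109 and 101 CPM in control NPC, and 135, 135 and 133 CPM in hESC. It was lower in BafA1 NPC than in hESC (-0.47 ± 0.09, edgeR adjusted p = 0.000472). The change from control NPC, -0.20 ± 0.09, did not pass (edgeR adjusted p = 0.0843) although the libraries did not overlap, and it passed without control NPC replicate 3 (-0.27, adjusted p = 0.0275). Control NPC were lower than hESC by edgeR (-0.26 ± 0.09, adjusted p = 0.0189), a call lost without control NPC replicate 2 or 3 or hESC replicate 1 or 2 (adjusted p up to 0.0785). RPL39L, a copy of RPL39 known from testis, stem cells and tumours, had 35.5, 53.5 and 50.4 CPM in BafA1 NPC, against 31.9, 34.1 and 35.2 CPM in control NPC. It was the only paralogue called higher in BafA1 NPC (0.46 ± 0.13, edgeR adjusted p = 0.0136), and the call was lost without BafA1 NPC replicate 2 or 3 (adjusted p = 0.0576 and 0.0571). RPL39 rose by 0.51 ± 0.15 (edgeR adjusted p = 0.0165, up to 0.0691 without BafA1 NPC replicate 2 or control NPC replicate 1 or 2), and RPL39L stayed at 3.54 ± 0.207% of the FPKM of RPL39 in BafA1 NPC and 3.67 ± 0.287% in control NPC, against 4.83 ± 0.209% in hESC.

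RPL26L1 had 24.6, 38.7 and 34.4 CPM in BafA1 NPC, 28.6, 33.7 and 30.7 CPM in control NPC, and 27.0, 26.2 and 26.2 CPM in hESC. It changed by 0.07 ± 0.14 between BafA1 NPC and control NPC (edgeR adjusted p = 0.721). Its partner RPL26, a protein at the mouth of the exit tunnel, changed by 0.52 ± 0.17 (edgeR adjusted p = 0.0261), a call lost without BafA1 NPC replicate 2 or 3 or control NPC replicate 1 or 2 (adjusted p up to 0.106). RPL3L, a heart and skeletal muscle form of RPL3, had 43, 41 and 28 counts in hESC and 0 in all 6 NPC libraries. With a floor of 3 counts per library, it was at least 10.9-fold lower in BafA1 NPC and at least 11.7-fold lower in control NPC than in hESC, where its mean was 0.631 CPM. RPL3 itself rose in BafA1 NPC over control NPC by 0.56 ± 0.13 (edgeR adjusted p = 0.00527). RPL22 (0.39 ± 0.14, edgeR adjusted p = 0.0472) and RPL10 (0.46 ± 0.13, edgeR adjusted p = 0.0122), the partners of RPL22L1 and RPL10L, were called higher as well. The call of RPL22 was lost in 7 of the fits that left out 1 library (adjusted p up to 0.168), and that of RPL10 without control NPC replicate 1 (adjusted p = 0.0503).

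**Figure D4:**
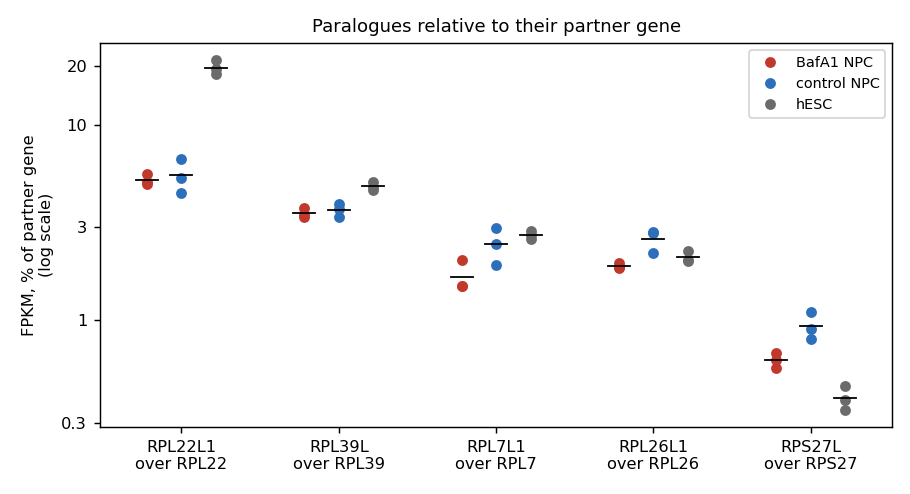
FPKM of 5 paralogues as a percentage of the FPKM of their partner gene (y axis, log scale) in each library, with a bar for the mean of 3 libraries. RPL22L1 is at 19.5% of RPL22 in hESC and near 5% in both NPC groups, and RPS27L is lowest in hESC, at 0.400% of RPS27. The level of each percentage depends on the transcript lengths assumed (7075 bases for RPS27L and 414 for RPS27), so levels cannot be compared between pairs.

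Annotated promoter sequence was at hand for 67 of the 84 genes. A C at an annotated start followed by 4 or more pyrimidines was found in 46 of 62 genes without the paralogues (74.2%), against 1404 of 27305 genes in the RefSeq table (5.14%), and in 1 of 5 paralogues, RPL22L1. A gene counted if any of its annotated starts had the motif. By single start, it was 47 of 83 starts of the 67 genes (56.6%), against 1429 of 35116 starts of all genes (4.07%). Of the 46 genes with the motif 44 were called higher in BafA1 NPC over control NPC, with a median change of 0.55. Of the 16 without it 14 were called, with a median of 0.52, so genes without this motif at the annotated start also rose. RPS26 was among these 16 and, as printed above, starts with no run. None of the 3 tested paralogues without the motif at the annotated start, RPL26L1, RPL7L1 and RPS27L, was called higher by edgeR, DESeq2 or limma. RPL22L1, the paralogue with the motif, was not called higher either (edgeR adjusted p = 0.0788). RPL39L, the paralogue that was called higher, had no promoter sequence at hand. Within 250 bases before to 50 after the start, on either strand, CCGGAAG (the GABP and ETS motif) occurred in 22 of the 62 genes (35.5%), against 12.2% of all genes. TCGCGAGA, the core of a palindrome common in promoters of housekeeping genes, occurred in 12 (19.4%), against 1.37%. AAGATGGC (the YY1 motif) occurred in 6 (9.68%), against 3.52%, and TATAAA (the TATA box) in 5, against 14.0%. The motifs were counted separately, and a match describes the letters alone.

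Over the 77 genes, the change between BafA1 NPC and control NPC was larger in genes with more GC. The median was 0.50 in the third of genes with the lowest GC content, 0.54 in the middle and 0.58 in the highest, and Pearson's r across genes was 0.43 (Spearman's rho 0.43), against 0.18 over 17488 genes. The opposite held between control NPC and hESC, with r of -0.33 (rho -0.39), against -0.15 over all genes. All points share the same libraries, and genes are not independent replicates. With transcript length the r was -0.05 (rho -0.18) between BafA1 NPC and control NPC. Removing the trend with length over all genes lowered the median of the tested ribosomal protein genes from 0.53 to 0.33. Each library's deviation from the gene means was also set against length over all genes. Spearman's rho was 0.07, -0.20 and -0.06 in BafA1 NPC replicates 1, 2 and 3, and 0.14, 0.09 and 0.08 in control NPC. With GC content it was 0.01, 0.05 and -0.02 in BafA1 NPC, and -0.13, -0.21 and -0.33 in control NPC. In hESC it was -0.03, 0.01 and -0.02 for length and 0.17, 0.09 and 0.13 for GC. The part of these trends in the spread of the replicates was not tested.

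Some products of genes with other names also sit in the ribosome. RACK1, a scaffold on the small subunit, was higher in BafA1 NPC than in control NPC (0.47 ± 0.13, edgeR adjusted p = 0.0122), as was FAU, a small subunit protein made as a ubiquitin-like fusion (0.44 ± 0.13, edgeR adjusted p = 0.0192). RPL36AL, a retrocopy of RPL36A, changed by 0.15 ± 0.14 (edgeR adjusted p = 0.418), and by 0.33 without BafA1 NPC replicate 1 (adjusted p = 0.00691). The calls of RACK1 and FAU were lost in 2 and 3 of the fits that left out 1 library (adjusted p up to 0.0509 and 0.0773). Another list held 18 transcripts known to carry a TOP motif, among them the non-coding host genes GAS5, SNHG1, SNHG5, SNHG6 and SNHG8. The motif was found at an annotated start in 8 of the 12 with sequence at hand (66.7%). Of the 18, 11 were higher and 0 lower in BafA1 NPC by edgeR, with a median of 0.51, against 20.8% higher and 20.7% lower among all genes. At an unadjusted p under 0.05 edgeR gave 14 higher, DESeq2 called 14 higher and limma 10. EEF2, the elongation factor that moves the ribosome along the mRNA, rose by 0.69 ± 0.09 (edgeR adjusted p = 0.000161), EIF3F, an initiation factor subunit, by 0.56 ± 0.08 (edgeR adjusted p = 0.000346), and PABPC1, the poly(A)-binding protein, by 0.51 ± 0.09 (edgeR adjusted p = 0.00069). Between control NPC and hESC 16.7% of the 18 were called in each direction, which is fewer than among all genes (33% higher and 31.6% lower). The 3 of the 18 that were higher had among them the host gene SNHG6 (0.69, edgeR adjusted p = 0.00423), and the 3 that were lower had PABPC1 (-0.58, edgeR adjusted p = 8.44e-05) and EEF2 (-0.44, edgeR adjusted p = 0.00115).

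For the machinery that makes and assembles ribosomes, the shares called between BafA1 NPC and control NPC are set against 20.8% higher and 20.7% lower among all genes. Of 16 genes of RNA polymerase I and its factors, which transcribe ribosomal RNA, 3 were higher and 7 lower in BafA1 NPC than in control NPC (18.8 and 43.8%), with a median of -0.26. UBTF, the factor that opens ribosomal RNA genes, fell by 1.21 (log2; edgeR adjusted p = 8.2e-05) and the catalytic subunit POLR1A by 0.95 (edgeR adjusted p = 0.000348), while POLR1D, a subunit shared with RNA polymerase III, rose by 0.85 (edgeR adjusted p = 0.000428). Of 44 assembly factors 7 were higher and 14 lower (15.9 and 31.8%), with a median of -0.19. The shares called higher in both lists were thus no larger than among all genes. NOB1, the nuclease that finishes the small subunit RNA, rose by 0.88 (edgeR adjusted p = 8.72e-05) and the RNA methyltransferase FBL by 0.85 (edgeR adjusted p = 0.00017), while UTP20 of the early small subunit particle fell by 1.00 (edgeR adjusted p = 6.37e-05). Of 8 chaperones that carry single ribosomal proteins, 1 was higher and 3 lower (12.5 and 37.5%): HEATR3, which accompanies RPL5, fell by 0.68 (edgeR adjusted p = 8.97e-05), GRWD1, which binds RPL3, by 0.65 (edgeR adjusted p = 0.00119), and BCCIP, which binds RPL23, by 0.39 (edgeR adjusted p = 0.00609).

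Between control NPC and hESC most assembly factors fell. Of 44 factors 42 were lower in control NPC (95.5%, against 31.6% of all genes) and 1 higher (against 33% of all genes), with a median of -0.84, beside the median of -0.07 for the ribosomal protein genes. The helicase DDX21 fell by 1.41 (edgeR adjusted p = 7.85e-08), TSR1 of late small subunit maturation by 1.26 (edgeR adjusted p = 1.33e-07) and the RNA acetyltransferase NAT10 by 1.19 (edgeR adjusted p = 9.1e-08). Among the RNA polymerase I genes 7 were lower and 1 higher (43.8 and 6.25%), with POLR1G at -2.24 (edgeR adjusted p = 4.76e-07). Of the chaperones 4 were lower and 1 higher (50 and 12.5%), with PDCD2L, a chaperone of RPS2, at -1.34 (edgeR adjusted p = 5.66e-06).

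**Figure D5:**
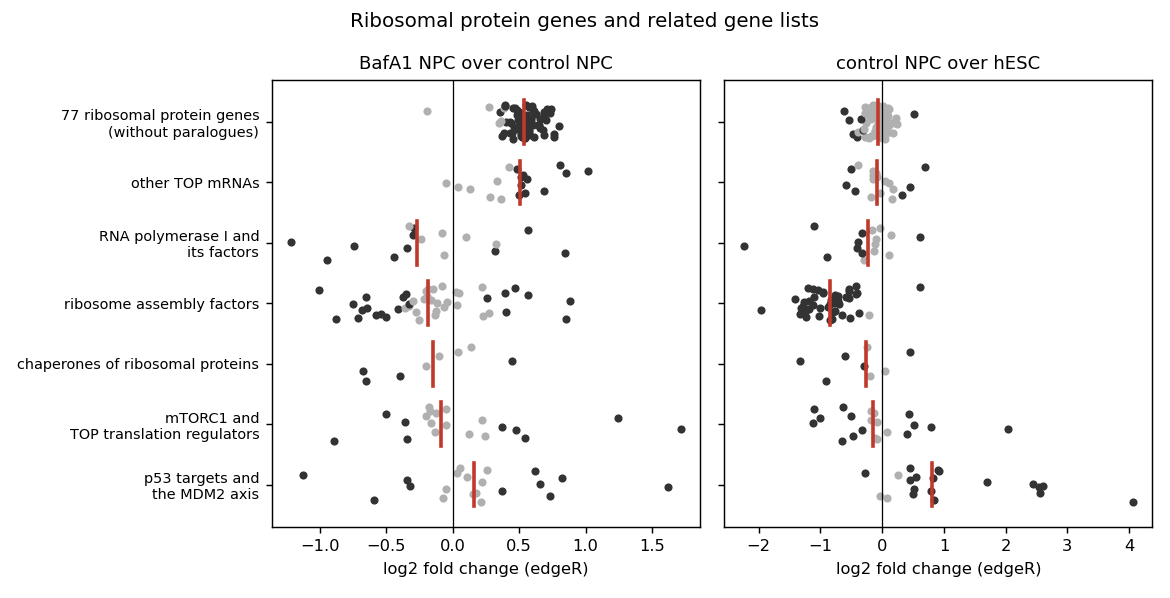
Change of the 77 ribosomal protein genes and of 6 related gene lists (rows; each point a gene, dark where the edgeR adjusted p was under 0.05, red bar the median) as log2 fold change, BafA1 NPC over control NPC on the left and control NPC over hESC on the right. The ribosomal protein genes and the list labelled other TOP mRNAs, which includes non-coding host genes, lie mostly to the right of 0 on the left side (medians 0.54 and 0.51). The assembly factors lie mostly to the left of 0 on the right side (median -0.84).

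Of 20 regulators of mTORC1 and of TOP mRNA translation, 5 were higher and 4 lower in BafA1 NPC than in control NPC. These shares, 25 and 20%, were near those of all genes, 20.8 and 20.7%, so the counts show nothing about the list. DDIT4, an inhibitor of mTORC1, rose by 1.72 ± 0.23 (edgeR adjusted p = 0.000147) and EIF4EBP1, a repressor of translation initiation that mTORC1 switches off, by 1.25 ± 0.15 (edgeR adjusted p = 9.34e-05), while the kinase MTOR fell by 0.89 (edgeR adjusted p = 0.000171). LARP1 changed by -0.16 ± 0.11 between these groups (edgeR adjusted p = 0.254), and by -1.12 ± 0.11 between control NPC and hESC (edgeR adjusted p = 2.43e-06). These are mRNA levels, and the activity of mTORC1 was not measured. Of 20 genes of the p53 and MDM2 axis, 6 were higher and 4 lower in BafA1 NPC than in control NPC (30 and 20%), which is also near the shares of all genes. GDF15, a stress cytokine, rose by 1.62 ± 0.25 (edgeR adjusted p = 0.000395), and the metabolic regulator TIGAR fell by 1.13 (edgeR adjusted p = 4.91e-05). Between control NPC and hESC 16 of the 20 were higher (80%, against 33% of all genes) and 1 lower (5%, against 31.6%), the direction also taken by RPS27L: the cell cycle inhibitor CDKN1A rose by 4.06 ± 0.19 (edgeR adjusted p = 3.69e-09) and the death receptor FAS by 2.56 ± 0.15 (edgeR adjusted p = 3.77e-08).

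Reads of these genes can be shared with copies. The table holds 1441 pseudogene rows named after the 84 genes, of which 946 had counts, and their sum was 2.74% of the counts of the 84 genes in BafA1 NPC, 2.61% in control NPC and 2.39% in hESC. After RPS28, the shares relative to the gene itself were 18.9% for RPSA in BafA1 NPC, against 18.3% in control NPC and 18.5% in hESC. With pseudogene counts added to their gene, 74 genes were higher and 0 lower by edgeR between BafA1 NPC and control NPC. Of all 20445 genes then tested 21.1% were higher. RPL17 and RPL36A also share exons with the readthrough genes RPL17-C18orf32 (2175 to 4076 counts per NPC library) and RPL36A-HNRNPH2 (162 to 659), so their own values are uncertain to that extent.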

How the data were processed

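The 9 libraries were stranded and mRNA-selected, per the labels. The submitters' processing notes name Trimmomatic and GRCh38, and no source used here names the aligner or the counting tool. The authors deposited whole-number read counts per gene and library, not normalised, and FPKM values per gene and library, per the file headers. Columns were matched to samples by name, and 0 columns of other samples were present.

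Counts were tested with edgeR 4.0.16 in R 4.3.3 (filterByExpr, TMM, quasi-likelihood fit of all 9 libraries with 1 term per group, Benjamini-Hochberg adjustment over 20685 genes, called at 0.05), and changes are log2 fold changes with SE. CPM values are TMM-scaled. DESeq2 1.42.0 on the deposited counts and limma 3.58.1 on log2(FPKM + 1) or log2(FPKM + 0.1) were alternatives; on that scale the changes of low genes are understated. No library was a copy of another. The edgeR step was tested on simulated data. Genes were named by a rule: the 6 largest rises and falls with at least 5 CPM and no overlap, the paralogues and their partners, listed genes, and up to 3 per list; some genes so named are not reported here. The members, lists and tests were chosen with earlier results of these data known, and lists are described by counts and medians without a list test. Sequences are from RefSeq, GRCh38.p14; 44698 gene IDs matched. GC content came from GENCODE transcripts. Where a library had 0 counts, 3 counts (0.043 to 0.0696 CPM before TMM scaling) served as its floor, which covers counting error only. The fold bounds used the TMM-scaled floor, on average 0.0581 CPM in BafA1 NPC and 0.0537 CPM in control NPC.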

Additional observations from a re-analysis of the deposited data

How the results depend on the processing

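Counts of ribosomal protein genes are given here as higher and lower. The 9 and 4 lower against hESC in the main fit include RPL3L, which passed the filter through hESC alone. In BafA1 NPC over control NPC (73 and 0), TMM factors computed without these genes gave 73 and 0, no filter 70 and 0, the 2 groups alone 63 and 0, DESeq2 77 and 0. Scaling by library size gave 55 and 2, limma on FPKM with either pseudocount 22 and 2 or 21 and 2, removal of the length trend 61 and 1 (median 0.33), and of GC and length trends 74 and 1. Leaving out 1 library gave 40 to 78 higher and 0 to 1 lower. Over these settings 12.5% (no filter) to 22.5% (DESeq2) of all genes were higher. With 1 library left out it was 15.3 to 20.9%, with library size scaling 15.0% and with limma 14.2 or 14.4%. From 3278 to 5814 genes were lower. In control NPC over hESC (2 and 9), scaling by library size gave 4 and 5, DESeq2 17 lower, the 2 groups alone 19 lower, removal of the length trend 10 higher, of GC and length trends 8 higher, and of both with the replicate block 9 and 16. Leaving out 1 library gave 2 to 3 higher and 5 to 20 lower. Of all genes 29.5 to 36.9% were higher over these settings, and 5681 to 7054 genes were lower. In BafA1 NPC over hESC (63 and 4), limma gave 35 higher with either pseudocount, and leaving out 1 library 38 to 78 higher and 4 to 4 lower. Of all genes 31.2 to 35.1% were higher in these fits, and 6694 to 7828 genes were lower. Library size scaling shifts the median of all genes by -0.12 in BafA1 NPC over control NPC. Shares of FPKM were 23.4% in BafA1 NPC, 18.7% in control NPC and 17.8% in hESC, and leaving out 1 library moved the shares of counts to 9.56 to 11.2%, 7.41 to 8.31% and 7.59 to 8.03% in these groups. The cause of these differences was not tested.

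A fit with the replicate number as a block gave 75 and 0, 2 and 12, and 64 and 4 in the 3 comparisons. Of all 20685 genes it called 4111 higher and 4130 lower, 6694 and 6422, and 7197 and 7098. Of 9 same-numbered pairs of libraries 0 correlated over 0.1 (-0.06 to 0.09). The labels do not say whether a number marks a shared culture or day. With 3 libraries a group these correlations cannot decide it.

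Scaled to the genes' own counts, the calls were 0 and 5, 6 and 7, and 7 and 9. The 7 and 9 lower include RPL3L, whose call the filter fixed. Scaling to the genes' own counts has further effects. It centres the genes by construction and so turned signs. In BafA1 NPC over control NPC the changes were then -0.47 for RPL26L1, -0.073 for RPL39L, -0.53 for RPS27L, -0.14 for RPL22, -0.0147 for RPL26, -0.0199 for RPL39, -0.0653 for RPL10, -0.10 for FAU, -0.0456 for RACK1, -0.40 for RPL36AL, -0.0859 for RPL5, -0.0288 for RPLP0, -0.0176 for RPLP1, -0.13 for RPSA, -0.25 for RPS6, -0.00837 for RPL13A, -0.0267 for NAT10 and -0.091 for PDCD2L. In BafA1 NPC over hESC they were -0.0432 for RPL26, -0.12 for FAU, -0.0642 for RACK1, -0.0171 for RPLP0, -0.27 for RPLP1, -0.34 for RPS6, -0.27 for RPL8, -0.25 for RPL12, -0.16 for EEF2 and -0.41 for FBL. With GC and length trends removed, control NPC over hESC turned to 0.19 for FAU and 0.23 for RPLP2, and to 0.19 and 0.23 with the replicate block as well. Leaving this scaling aside, 29 of the 48 named genes called in BafA1 NPC over control NPC kept their call in every setting, 31 of 36 in control NPC over hESC and 42 of 52 in BafA1 NPC over hESC.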
